A study of Mus musculus with 27 samples.

Results

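The comparison described here sets RNA recovered from RAW264.7 cells with an antibody against HuR beside RNA recovered with control IgG. RAW264.7 is an established mouse macrophage line. Of the 27 libraries of the series, 15 were used: 12 anti-HuR libraries and 3 IgG libraries, chosen by their labels. Cells were treated for 6 h in 3 ways: with the vehicle DMSO, with lipopolysaccharide (LPS, a bacterial cell wall component that activates macrophages) at 1 µg/ml plus DMSO, or with LPS at 1 µg/ml plus TM7nox at 10 µM. TM7nox is one of the compounds that the design text calls tanshinone mimics. The groups were anti-HuR with DMSO, LPS and LPS + TM7nox, of 4 libraries each, and IgG with DMSO, LPS and LPS + TM7nox, of 1 library each. Every group came from the same cell line. The 3 IgG libraries all carry replicate number 3, so the spread of IgG within a treatment cannot be measured. Nothing in the labels says whether replicates were separate cultures, so the p-values measure only the spread between these samples. The 12 total RNA libraries of the series (4 per treatment) are used below only as a level.

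HuR, encoded by Elavl1, is an RNA-binding protein of the ELAV family. Its RNA recognition motifs bind U-rich and AU-rich stretches, mostly in the 3′ untranslated regions (3′ UTRs) and introns of transcripts, and it is known for stabilising messages of cytokines, growth regulators and stress genes. In ribonucleoprotein immunoprecipitation (RIP), an antibody to the protein pulls down the RNA that travels with it, and an unrelated IgG measures what is recovered without that antibody's specificity.

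The sequences below show the features by which 3′ UTRs are described further down, the longest run of U and the AU-rich element. Each is 30 bases of the sense strand of a 3′ UTR (GENCODE M39, the canonical transcript, on GRCm39), written with T for U. In the first set, of messages higher with anti-HuR, capitals mark the longest run of T, and these windows were chosen after the values were seen.
Actb (chr5:142889404-142889433, minus strand): TTTTTTTTTTTTTTTTTTTTTTTTTTTTTa
Lsm12 (chr11:102053471-102053500, minus strand): ttttcTTTTTTTTTTTTTTTTTTTTggcca
Tram1 (chr1:13636174-13636203, minus strand): ttaatggTTTTTTTTTTTTTTTcctaatgg
Ywhaz (chr15:36772166-36772195, minus strand): ttctttcTTTTTTTTTTTTTTTaaagtttt
Tmem243 (chr5:9168819-9168848, plus strand): tgtttttgTTTTTTTTTTTTTTaacaattt
Cebpb (chr2:167532176-167532205, plus strand): tttgttttgTTTTTTTTTTTggtcttatta
Tspan5 (chr3:138608982-138609011, plus strand): ttttggttcTTTTTTTTTTTctttctttct
Elavl1 (chr8:4339551-4339580, minus strand): tctttccttcTTTTTTTTTTccttttcttt
In the second set, of messages that were not higher with anti-HuR over all treatments, capitals mark the first TTATTTATT of Tnf and Csf2, the first ATTTA of Nos2 and the longest run of T of Gapdh. This set too was drawn up after the values were seen. The sets mark different features, and messages of the first can hold the AU-rich element too, as Elavl1 does with 8 copies of TTATTTATT.
Tnf (chr17:35418664-35418693, minus strand): tttgcacttaTTATTTATTatttatttatt
Csf2 (chr11:54138154-54138183, minus strand): ttttaaatatTTATTTATTtatttatttat
Nos2 (chr11:78850922-78850951, plus strand): ctatgtacagatATTTAtacttcatattta
Gapdh (chr6:125138888-125138917, minus strand): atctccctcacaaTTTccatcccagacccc
The last pair goes against the first set, since Rps3 has a long run and was lower, while Lyrm4 has only a short one and was higher. Capitals mark the longest run of T.
Rps3 (chr7:99127803-99127832, minus strand): ttgcTTTTTTTTTTTTTTTTTTTTTTctct
Lyrm4 (chr13:36163509-36163538, minus strand): atttgtatagagcTTTTgcagactctgtgt

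The anti-HuR libraries held 19816312 to 41449233 counts, and the IgG libraries held 21172511 (DMSO), 24513902 (LPS) and 8873091 (LPS + TM7nox). Values below are normalised read counts in CPM, that is counts relative to a common library size scaled with TMM factors, and changes are log2 fold changes of anti-HuR over IgG with treatment as a covariate (edgeR's quasi-likelihood test). Genes with an adjusted p under 0.05 are referred to as called. TMM factors were 1.47 to 2.41 for IgG and 0.64 to 1.21 for anti-HuR, so the scaling itself differs between the antibodies.

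Most of the transcriptome differed between the antibodies. Of 18282 genes tested, 10580 (57.9%) were called, 5445 higher with anti-HuR (29.8%) and 5135 lower (28.1%). The changes upward were the larger: 1719 called genes lay 3 log2 units or more above IgG, and 127 lay that far below it. In 3010 genes (16.5%) all 12 anti-HuR libraries lay above all 3 IgG libraries, and in 2313 (12.7%) all lay below. The median over all genes tested was −0.05. Scaled by library totals alone, the median moved to −1.14 and the split became 3012 higher and 9604 lower, so directions below are relative to the TMM scale, and the sign of the smaller positive changes depends on it.

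**Figure D1:**
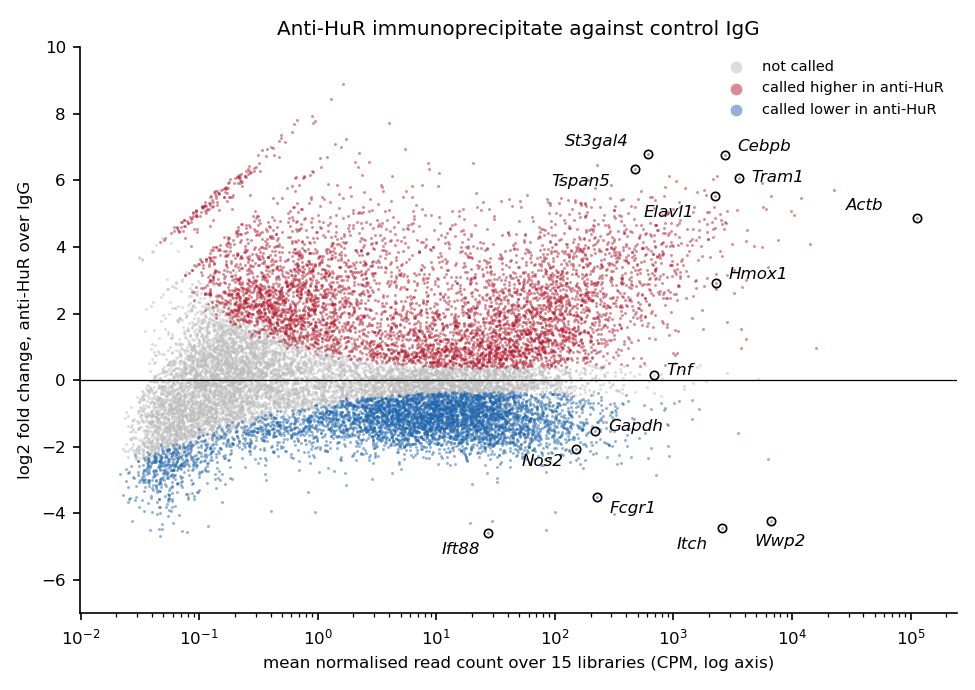
Each point is a gene, by its mean normalised read count over the 15 libraries (CPM, log axis) and its log2 fold change of anti-HuR over IgG, with called genes in red (higher) and blue (lower). Actb, the most abundant gene, stands at 4.87, Wwp2 and Itch lie far below zero at −4.23 and −4.43, and Tnf lies at 0.14. One Ptp4a1 entry lies above the axis.

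The composition of the libraries differed too. Actb, which encodes β-actin, took 11.4% ± 3.88 (SD, n = 12) of the counts of the anti-HuR libraries and 0.866% ± 0.399 (SD, n = 3) of the IgG libraries. In total RNA it took 0.817% ± 0.281 (SD, n = 12), from which the IgG share differed by less than the SD of either. Mitochondrially encoded transcripts took 1.09% ± 0.468 with anti-HuR, 5.67% ± 0.422 with IgG and 17.4% ± 2.95 in total RNA. Most of the IgG share lay in the ribosomal RNAs mt-Rnr2 and mt-Rnr1, with 678179 and 311951 of 21172511 counts in IgG DMSO. The share thus does not stand for each mitochondrially encoded gene, and their calls are given further down. Cytosolic ribosomal protein messages took 0.704% ± 0.178 with anti-HuR and 3.37% ± 0.14 with IgG, beside 3.98% ± 0.29 in total RNA. For these classes, for protein-coding genes (95.9% against 89.4%) and for pseudogenes (0.417% against 1.02%), every anti-HuR library lay on 1 side of every IgG library, with an adjusted p of 0.00396 in an exact two-sided permutation test over 9 classes, from a raw p of 0.0022, which is the smallest that 12 against 3 allows. Histone genes (0.077% against 0.306%, adjusted p = 0.0569), small noncoding RNAs (2.07% against 3.3%, adjusted p = 0.0569), the 20 most abundant genes of each library (27.9% against 20.9%, adjusted p = 0.0569) and long noncoding RNAs (0.523% against 0.645%, adjusted p = 0.53) did not pass in the same exact permutation test. The first 3 of these passed in some alternatives: small noncoding RNAs and the 20 most abundant genes in 4 of 17 each, and histone genes in 2 of 17. This test pools the treatments, and the 20 most abundant genes with anti-HuR include Actb, so that class is not separate from it. Within treatments, the IgG library held more histone counts than any anti-HuR library in DMSO (0.7% against at most 0.193%), LPS (0.0773% against at most 0.0493%) and LPS + TM7nox (0.141% against at most 0.0518%). For small noncoding RNAs IgG lay above every anti-HuR library in DMSO (4.06% against at most 3.19%) and LPS + TM7nox (3.57% against at most 2.54%). In LPS it (2.27%) lay within the anti-HuR range of 1.1% to 3.92%. Without mitochondrially encoded genes in the total, the anti-HuR minus IgG difference of protein-coding genes was 2.22 percentage points in place of 6.54 (adjusted p = 0.0119 in the exact permutation test). That of long noncoding RNAs, −0.123 points, was 0.11 without the IgG DMSO library and −0.276 without the IgG LPS library, and that of histone genes, −0.229 points, was −0.032 and −0.344 without the first and the second of these.

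Elavl1, the message of HuR itself, was among the most enriched. It stood at 2720, 2450, 1840 and 1760 CPM with anti-HuR in DMSO, at 3260, 3890, 2700 and 2240 CPM in LPS, and at 3210, 4270, 2400 and 2440 CPM in LPS + TM7nox. With IgG it stood at 45.7, 79.1 and 56.7 CPM. The groups did not overlap, and the log2 fold change was 5.52 ± 0.328 (SE, adjusted p = 6.37e-12). Its 3′ UTR of 7024 nt holds 8 copies of TTATTTATT and 20 of ATTTA, and its longest U run is 10 nt. The gene (chr8:4332576-4375489, minus strand) overlaps Ccl25 on the other strand, and whether counting used the strand is not given in the sources used here.

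Actb lay at 50700 to 114000 CPM with anti-HuR in DMSO, at 156000 to 244000 CPM in LPS and at 112000 to 150000 CPM in LPS + TM7nox. With IgG it lay at 2560, 9050 and 3640 CPM in the same order, below every anti-HuR library. The log2 fold change was 4.87 ± 0.393 (adjusted p = 4.46e-10). The gene lies at chr5:142888870-142892509 on the minus strand of GRCm39, where no other annotated gene overlaps it. Actg1, which encodes the other cytoplasmic actin, went the other way, at 199 CPM with anti-HuR and 565 CPM with IgG (log2 fold change −1.45).

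The genes with the largest enrichment were taken by a rule: a mean of at least 5 CPM, libraries of the antibodies that do not overlap, and no predicted symbol. St3gal4, a Golgi sialyltransferase, lay at 611 to 628 CPM with anti-HuR in DMSO, 949 to 1540 CPM in LPS and 324 to 710 CPM in LPS + TM7nox. IgG held 5.07, 12.6 and 4.09 CPM, giving a log2 fold change of 6.78 ± 0.33 (adjusted p = 5.78e-13). With both antibodies its level was highest in LPS. Cebpb, a transcription factor that macrophages induce on activation, lay at 249 to 876 CPM in DMSO, 1950 to 5510 CPM in LPS and 1800 to 9060 CPM in LPS + TM7nox with anti-HuR. IgG held 6.31, 43.2 and 40.4 CPM, and the log2 fold change was 6.76 ± 0.572 (adjusted p = 9e-10). Replicate 3 was the lowest of the 4 anti-HuR libraries for Cebpb in every treatment.

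Tram1, a part of the machinery that moves proteins into the endoplasmic reticulum, varied little. It lay at 3590 to 5640 CPM over all 12 anti-HuR libraries and at 55.8, 77 and 66 CPM in the IgG libraries (log2 fold change 6.07 ± 0.284, adjusted p = 4.93e-13). Lsm12, a member of the LSm family of RNA-binding proteins, lay at 2130 to 4110 CPM against 30.1 to 58.9 CPM (6.14 ± 0.321). For both genes the 3 IgG libraries lay far below all anti-HuR libraries in every treatment. Others of the leading 12 were Tspan5 (6.34), a tetraspanin, Tmem243 (6.47), Fbxl14 (6.14), an F-box protein, and Lyrm4 (6.05), an iron-sulphur cluster assembly factor. The rest were Msi1 (6.53), an RNA-binding protein, Frat1 (6.94), a GSK3-binding protein, Nutf2-ps1 (6.23), a pseudogene by its symbol, and a Ptp4a1 entry. Msi1, Frat1 and Nutf2-ps1 were low, with anti-HuR means of 10.6, 6.85 and 13 CPM. Frat1 rests on 6 IgG counts in all, and its log2 fold change was 4.97 without the IgG DMSO library and 7.95 without the IgG LPS library. Nutf2-ps1, whose reads may come from its parent gene, was at 7.03 without the IgG LPS library. Its canonical transcript in GENCODE M39 has a coding part.

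The Ptp4a1 entry is uncertain. More than 1 gene of the table carries that symbol, and this one spans chr1:30988665-30988772 and overlaps Ptp4a1 on the same strand. It had 0 counts in the 3 IgG libraries, and against a floor of 3 counts over the IgG group (0.0292 CPM) the mean of the anti-HuR libraries of replicate 3, the number all IgG libraries carry, was at least 32.9-fold higher. Its anti-HuR level split by replicate number. Replicates 1 and 2 held 25.8 to 60.8 CPM, while replicate 3 held 0.495, 0.836 and 1.55 CPM and replicate 4 held 3.77, 4.26 and 9.78 CPM. Over all treatments its call was lost with limma voom (adjusted p = 0.0881). Among the leading genes, Cebpb too moved with the replicate number as a block, from 6.76 to 5.42.

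**Figure D2:**
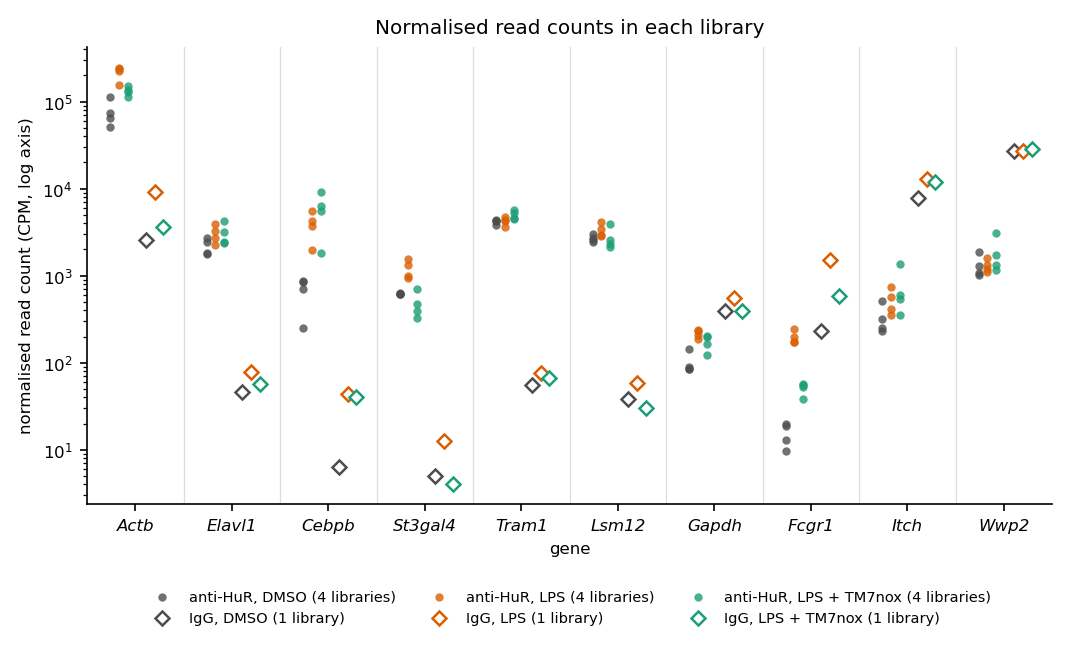
Normalised read count (CPM, log axis) of 10 genes in every library, with filled circles for anti-HuR and open diamonds for IgG, coloured by treatment. For Actb, Elavl1, Cebpb, St3gal4, Tram1 and Lsm12 every circle lies above every diamond, and for Gapdh, Itch and Wwp2 every circle lies below; Fcgr1 overlaps between treatments but not within one.

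The 3′ UTRs of the enriched messages were rich in runs of U. The motifs searched, on the sense strand only, were a run of U (TTTTTTT), the AU-rich pentamer (ATTTA) and the AU-rich nonamer (TTATTTATT), which contains the pentamer. Among 12629 coding genes with a 3′ UTR of at least 50 nt, 46.8% held the U run, 72.4% the pentamer and 8.99% the nonamer. Among the 2760 called higher by a log2 fold change of at least 1, these shares were 81.1%, 87.1% and 15%. Among the 2888 called lower by at least 1, they were 25.2%, 60.2% and 5.96%. The higher genes also had longer 3′ UTRs, with a median of 2159 nt against 778 nt in the lower genes and 1335 nt over all, so the shares were taken again within bins of length. Among 3′ UTRs under 500 nt, the U run was in 31.5% of the higher, 11.9% of all and 5.85% of the lower genes, among those of 500 to 1500 nt in 69.9%, 35.4% and 22.8%, and among longer ones in 92%, 71.9% and 53.2%. The median U share of the 3′ UTR was 31.2% in the higher genes, 28.9% over all and 27.8% in the lower genes.

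The length of the longest run ordered the genes further, in a division made after the values were seen. Where the longest U run was at most 4 nt (2511 genes), 7.73% were called higher and 53.3% lower, and the median log2 fold change was −0.9. At 5 to 6 nt (4212 genes) the shares were 13.3% and 44.5%, and at 7 to 9 nt (3066 genes) they were 37% and 25.7%. At 10 to 14 nt (1857 genes) they were 52.5% and 18.6%, and at 15 nt or more (983 genes) 66% were called higher and 12.3% lower, with a median of 1.55. Over all coding genes the shares were 27.8% and 35.4%. The order from the shortest to the longest runs was the same within each bin of 3′ UTR length: under 500 nt the medians ran from −0.96 to 1.69 (25 genes in the last bin), at 500 to 1500 nt from −0.78 to 1.25, and above 1500 nt from −0.8 to 1.64. Expression in total RNA moved along with run length, with a median of 8.67 CPM (not TMM-scaled) in the genes with the shortest runs and 23.6 CPM in those with the longest, and its part in the pattern was not tested.

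**Figure D3:**
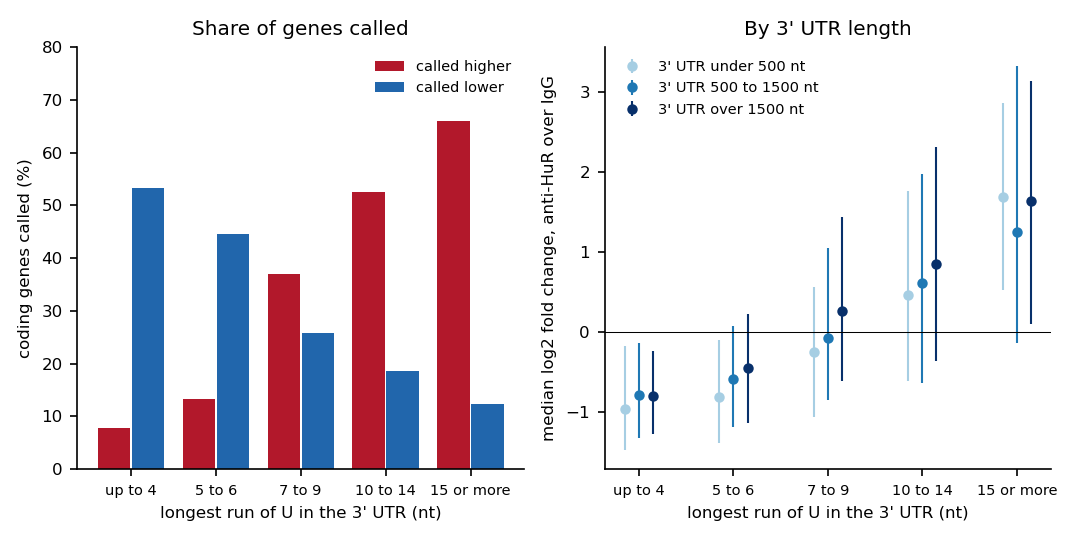
Left, the share of coding genes called higher (red) and lower (blue) in anti-HuR over IgG, by the longest run of U in the 3′ UTR. Right, the median log2 fold change (points) and the quartiles (lines) in each bin, split by 3′ UTR length: all 3 sets of points climb, from −0.78 or lower at runs of up to 4 nt to 1.25 or higher at runs of 15 nt or more.

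The genes were also divided by the nonamer. With no U run of 7 nt, 308 genes that held the nonamer had a median log2 fold change of −0.47, with 18.2% called higher and 40.9% lower, and 6415 genes without it had −0.71, with 10.9% and 48.1%. With a U run of at least 7 nt, the 827 genes with the nonamer had a median of 0.89 and the 5079 without it 0.42. Of 18 genes with 3 or more nonamers and no U run of 7 nt, 3 were called higher and 10 lower, while of all 103 genes with 3 or more nonamers 48.5% were called higher and 23.3% lower (median 0.7). Tnf and Csf2 belong to the 18, with 5 and 4 nonamers and longest U runs of 4 and 6 nt.

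Single messages lay on either side. Pfn1, which encodes the actin-binding profilin, has a U run of 34 nt in its 3′ UTR and lay at 9140 to 23900 CPM with anti-HuR against 261 to 458 CPM with IgG (log2 fold change 5.47 ± 0.354, adjusted p = 1.78e-11). Paip1, a partner of poly(A)-binding protein, has a run of 33 nt and stood at 4.79, and Ywhaz, a 14-3-3 protein, has a run of 15 nt and stood at 5.08. Rps3 has a run of 22 nt in the canonical transcript, yet it fell by 1.87 on the log2 scale, with 78.5 to 301 CPM against 476 to 731 CPM. Itch has a run of 11 nt and was among the lowest. Lyrm4 has no run over 4 nt and was among the highest, at 207 to 390 CPM with anti-HuR against 3.65 to 5.51 CPM with IgG. The canonical transcript may not be the isoform of these cells, and a match is not a binding site.

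Messages reported as HuR targets in other systems were tallied from a list of 40. All 40 were tested, 20 were called higher (background 29.8%), 6 lower (28.1%) and 14 neither, and the median was 0.66 against −0.05 over all genes. The largest were Actb, Hmgb1 (4.55), a chromatin protein that acts as an alarm signal outside the cell, and Marcks (4.54), a membrane-bound actin regulator. Ptma (3.98), the cyclin-dependent kinase inhibitor Cdkn1b (3.64), the cap-binding factor Eif4e (3.53), the oncogene Myc (3.47), the caspase inhibitor Xiap (3.06), Hmox1 (2.91), the cyclin Ccnd1 (2.55), Fos (2.5), the glucose transporter Slc2a1 (2.21) and Trp53 (1.92) were also called higher. Nos2 (−2.07), Csf2 (−1.96), Il1b (−1.51), cytochrome c, Cycs (−1.39), Ctnnb1 (−0.88) and Ncl (−0.68) were called lower. Scaled by library totals, 15 were called higher and 17 lower. Csf2 depended on the IgG LPS library, without which its log2 fold change was −0.7 (adjusted p = 0.466).

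RNA-binding proteins that act on AU-rich and U-rich elements had a median of 1.68, the highest of the 16 lists drawn below. Of 30 listed, 27 were tested, and 20 were called higher, 3 lower and 4 neither, where 29.8% of all genes tested were higher and 28.1% lower. Besides Elavl1, the leading members were Rc3h2 (4.79), a roquin that promotes decay of mRNA, Pcbp2 (4.68), a poly(C)-binding protein, Ptbp3 (4.56), a polypyrimidine-tract-binding protein, and Khsrp (4.24), a decay-promoting KH-domain protein. Celf1 (3.78), Celf2 (3.77), Zfp36l1 (3.28) and Zfp36l2 (3.19) were called higher too. Ptbp1 (−1.15), Hnrnpdl (−1.12) and Zc3h12a (−0.41) were called lower, the last of which lost its call in 10 of 28 alternative fits, among them those without the IgG LPS + TM7nox library (adjusted p = 0.0657) and with the replicate number as a block (adjusted p = 0.077). On library totals the counts were 14 higher and 7 lower.

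Within single treatments, 7093 genes (38.8%) were called in DMSO, 3874 higher (21.2%) and 3219 lower (17.6%). In LPS 7086 genes (38.8%) were called, 3788 higher (20.7%) and 3298 lower (18%). In LPS + TM7nox 6921 genes (37.9%) were called, 3937 higher (21.5%) and 2984 lower (16.3%). These contrasts set 4 libraries against 1, and the lone IgG library is assumed to vary like the anti-HuR libraries. By the rule for leading genes applied within a treatment, the uncertain Ptp4a1 entry came first among the higher genes of every treatment and Itch was among the 3 lowest of every treatment. The Ptp4a1 call was lost in 2 of 20 alternatives in LPS (adjusted p up to 0.0571, without anti-HuR replicate 1 or 2 of LPS) and in 6 of 20 in LPS + TM7nox (adjusted p up to 0.0753, among them without anti-HuR replicate 1 or 2 of that treatment, IgG DMSO or IgG LPS). The others of the lowest were Smarcal1 and C1ra in DMSO, Ift88 and Madd in LPS, and Nedd4l and Ift88 in LPS + TM7nox, which are described further down. Among the higher genes, those outside the leading 12 over all treatments were H2ac10, a histone gene, second in LPS with 3.05 to 21.4 CPM against 0.0835 CPM, and Hmgb1-ps2, a pseudogene of Hmgb1, second in LPS + TM7nox with 3.87 to 14.8 CPM against 0 counts. Reads of these copies and of close relatives may be shared, so both are uncertain. Whether the antibody difference itself changed with treatment was tested as an interaction. No gene passed in edgeR. From DMSO to LPS 0 were called (0%), with 1072 at an unadjusted p under 0.05, and from LPS to LPS + TM7nox 0 were called (0%), with 1192. With the replicate number as a block, 115 (73 up, 42 down) and 8 (2 up, 6 down) were called, and DESeq2 called 13 and 0. On simulated counts of the same depth the first of these interaction tests recovered 24 of 100 genes changed 4-fold and 2 of 100 changed 2-fold. The simulated IgG libraries had anti-HuR means and no effect of the replicate number, unlike the data, where recovery may differ.

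The inflammatory cytokines and chemokines lay on both sides. Of 31 listed, 29 were tested, and 6 were called higher, 9 lower and 14 neither, with a median of 0.26. Over all genes tested 29.8% were called higher and 28.1% lower. With the replicate number as a block, 10 were called higher and 7 lower, and on library totals 5 and 16. The higher ones were Il1rn (4.08), the antagonist of the interleukin-1 receptor, the chemokines Ccl4 (4.02), Ccl9 (3.01) and Ccl3 (1.23), and the cytokines Lif (2.57) and Osm (2.06). Il1rn lay at 285 to 1210 CPM with anti-HuR in DMSO and at 13500 to 34800 CPM in the LPS and LPS + TM7nox groups, and IgG held 25.9, 2280 and 1470 CPM. Within each treatment the anti-HuR libraries were above their IgG library. Il1b, the cytokine whose receptor Il1rn blocks, lay at 397 to 530 CPM with anti-HuR in LPS against 1710 CPM with IgG, and at 65.8 to 119 CPM in LPS + TM7nox against 367 CPM. In DMSO it was at 0.596 to 2.12 CPM against 0.999 CPM. Its log2 fold change was −1.51 ± 0.282 (adjusted p = 7.32e-05). Nos2, the inducible nitric oxide synthase, lay at 129 to 225 CPM against 841 CPM in LPS, at 57.6 to 118 CPM against 369 CPM in LPS + TM7nox, and at 0.511 to 1.23 CPM against 2.45 CPM in DMSO (−2.07 ± 0.209, adjusted p = 1.41e-08). It was below IgG in every treatment. Csf2, Il1b, Csf1 (−1.38), Cxcl9 (−1.26), Il18 (−1.11), Csf3 (−1.1), Ccl5 (−0.98), Il27 (−0.8) and Tgfb1 (−0.6) were the 9 called lower.

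Tnf, the message of tumour necrosis factor, was not called over all treatments (0.14 ± 0.507, adjusted p = 0.826), and its levels stood differently to IgG in each treatment. Anti-HuR libraries held 451, 619, 441 and 402 CPM in DMSO, 552, 398, 368 and 427 CPM in LPS, and 2030, 513, 769 and 1270 CPM in LPS + TM7nox. IgG stood at 36.4, 999 and 987 CPM in the same order. In DMSO every anti-HuR library lay above IgG (log2 fold change 3.72, adjusted p = 0.000131), in LPS every one lay below it (−1.2, adjusted p = 0.0438), and in LPS + TM7nox they lay on both sides (0.22, adjusted p = 0.752). The LPS call was lost in 9 of the fits that left out 1 library, with adjusted p up to 0.106. The change of the anti-HuR over IgG difference from DMSO to LPS was −4.91 ± 0.772 with an adjusted p of 0.0711 in edgeR, which did not pass, and the adjusted p was 2.72e-05 with the replicate number as a block and 5.28e-07 in DESeq2. Over all treatments the log2 fold change was −0.57 without the IgG DMSO library and 1.37 without the IgG LPS library. Tnf was called higher in 4 of 28 alternatives, namely without the IgG LPS library (adjusted p just under 0.05), in replicate 3 alone (0.49, adjusted p = 0.0162), with limma voom (1.3, adjusted p = 0.0361) and as the mean of the 3 treatment contrasts (0.91, adjusted p = 0.0141), and on library totals its sign changed (−0.93, adjusted p = 0.0919). Each of these values rests on 1 IgG library per treatment.

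Il6, Il10, Cxcl10 and Ptgs2, further LPS-induced genes, were not called, at 0.27 ± 0.387, 0.65 ± 0.39, −0.22 ± 0.24 and −0.26 ± 0.296. Each was called under some alternative. Il6 was called higher in 3 of 28 alternatives, among them with the replicate number as a block (1.14, adjusted p = 0.000111). Il10 was called without a filter on low counts (0.72, adjusted p = 0.0124), and on library totals Cxcl10 (−1.33, adjusted p = 1.42e-05) and Ptgs2 (−1.36, adjusted p = 6.72e-05) were called lower, while Il6 (−0.84) and Il10 (−0.43) changed sign. Zfp36, which encodes tristetraprolin, a protein that drives decay of AU-rich messages, was called higher at 0.66 ± 0.231 (adjusted p = 0.0177), but not without the IgG DMSO library (adjusted p = 0.126), and its sign reversed on library totals. Hmox1, the stress-induced haem oxygenase, lay at 211 to 358 CPM in DMSO, 390 to 707 CPM in LPS and 4830 to 11400 CPM in LPS + TM7nox with anti-HuR, against 30.4, 109 and 664 CPM with IgG. Both antibodies held more of it in LPS + TM7nox, and within each treatment anti-HuR was above IgG (2.91 ± 0.328 over all, adjusted p = 7.45e-08). Without the treatment term in the fit, Hmox1, Il1rn, Marcks, Il1b and Nos2 did not pass (adjusted p 0.0882, 0.0591, 0.113, 0.318 and 0.18).

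**Figure D4:**
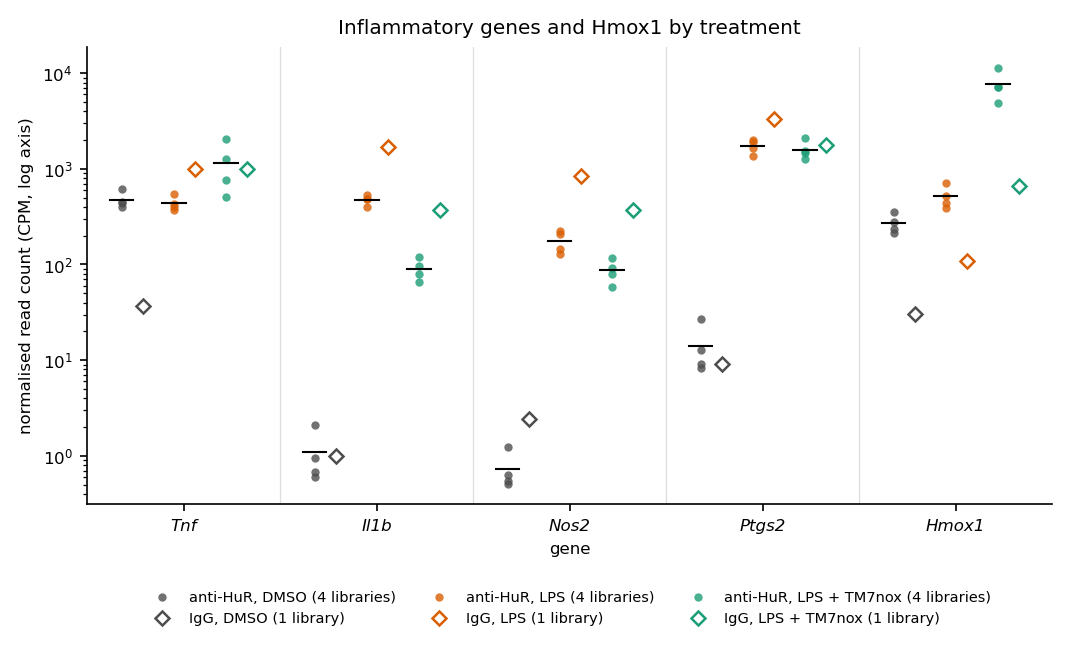
Normalised read count (CPM, log axis) of 5 genes in each library by treatment, with circles for the 4 anti-HuR libraries, a bar at their mean and a diamond for the single IgG library. Tnf with IgG climbs from 36.4 CPM in DMSO to 999 CPM in LPS while anti-HuR stays between 368 and 619 CPM in both, and Hmox1 lies above its diamond in all 3 treatments.

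Cell cycle, survival and growth regulators numbered 18 of 33 called higher, 5 lower and 10 neither (median 0.94), where 29.8% of all genes tested were higher and 28.1% lower. Cdkn2c (4.77), an inhibitor of CDK4 and CDK6, Pmaip1 (4.09), a pro-apoptotic BCL2-family protein, and Cdk6 (4.06), a G1 kinase with a U run of 25 nt, led. Cdk1 (−0.97), Birc3 (−0.87) and Ccnb2 (−0.77) were called lower, the last not without the IgG DMSO library (adjusted p = 0.0597), and the count of lower members was then 3. Among 34 genes of the actin cytoskeleton, 12 were called higher and 15 lower (median −0.31), against the same shares of 29.8% and 28.1%. After Pfn1 and Actb came Actr2 (3.15), a subunit of the Arp2/3 complex, Cfl2 (2.91), Vasp (2.76) and Tpm3 (2.62). Coro1a (−2.03), Flna (−1.6) and Coro1b (−1.52) lay at the other end, so the list did not move as a whole. Translation factors were divided likewise, with 10 of 25 higher, led by Paip1, Eif4e and Eif4a1 (2.8), and 12 lower, led by Eif2s1 (−1.62), Eif3a (−1.6) and Eif5b (−1.48), against 29.8% and 28.1% of all genes. On library totals, 15 cell cycle regulators were higher and 14 lower, 9 actin genes were higher and 22 lower, and 4 translation factors were higher and 17 lower.

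**Figure D5:**
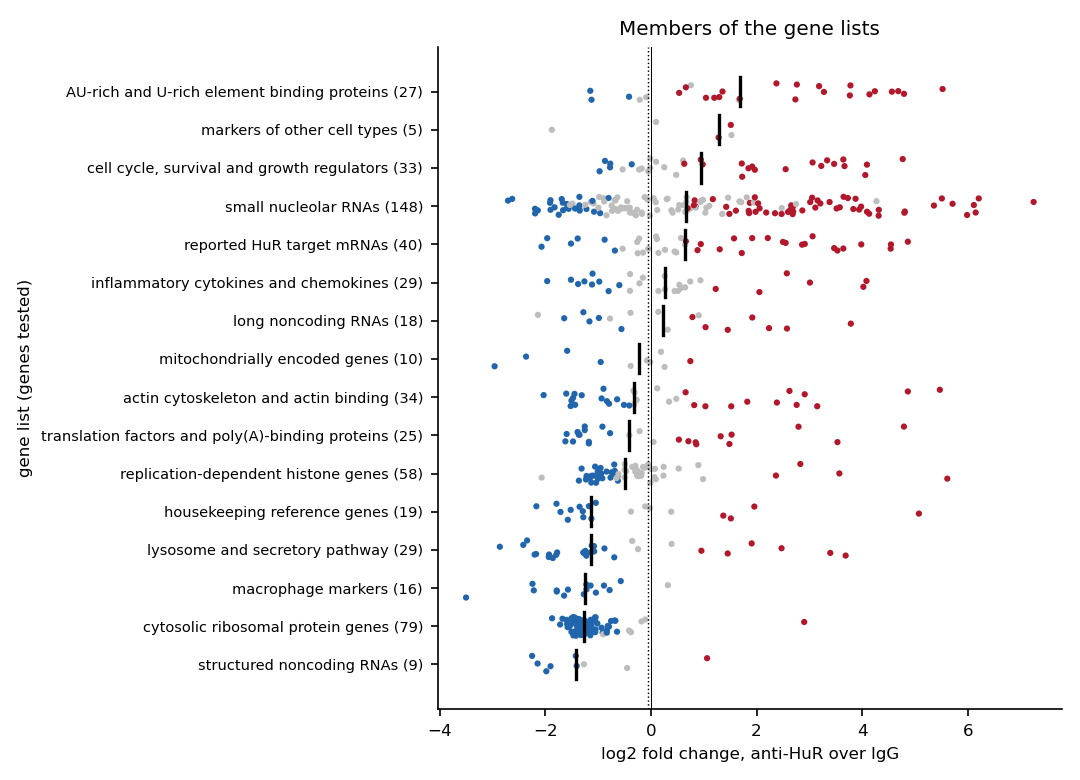
Log2 fold change of anti-HuR over IgG for each tested member of 16 gene lists, coloured red (called higher), blue (called lower) or grey (not called), with the list's median as a bar and the median of all genes as a dotted line. Element-binding proteins have the highest median at 1.68, ribosomal protein genes cluster around −1.27, and most lists span both sides.

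In 3 further lists more members were called lower than higher, where over all genes tested 28.1% were lower and 29.8% higher. Of 79 cytosolic ribosomal protein genes tested, 73 were called lower and 1 higher (median −1.27), the higher one being an Rpl24 entry at 0.736 CPM. Rps3 (−1.87), Rpl38 (−1.72) and Rps26 (−1.68) were the lowest. Of 29 lysosomal and secretory genes, 20 were lower and 6 higher (median −1.14). Hspa5, the chaperone BiP of the endoplasmic reticulum, lay at 85.8 to 784 CPM with anti-HuR against 826, 2210 and 3730 CPM with IgG (−2.86 ± 0.216, adjusted p = 1.64e-10). The lysosomal α-glucosidase Gaa (−2.42) and cathepsin B, Ctsb (−2.35), were low beside it, while Pdia4 (3.69), Canx (3.4) and Lamp2 (2.47), of the same list, were high. Of 19 housekeeping genes, 11 were lower and 4 higher (median −1.13). Gapdh lay at 84.4 to 238 CPM against 388, 560 and 392 CPM (−1.52 ± 0.184, adjusted p = 2.27e-07), and Sdha (−2.17), Gusb (−1.79) and Polr2a (−1.71) were lowest, while Ywhaz, Tfrc (1.96) and the tubulin Tubb5 (1.51) were higher. So the common reference genes stood on both sides. On library totals, 78 ribosomal protein genes were lower and 1 higher, 23 lysosomal and secretory genes were lower and 4 higher, and 15 housekeeping genes were lower and 2 higher.

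The defining genes of macrophages were detected in both kinds of library and were lower with anti-HuR. Of 16 macrophage markers, 15 were called lower and 0 higher in edgeR, also 0 higher at an unadjusted p under 0.05, where 28.1% of all genes tested were lower and 29.8% higher. The remaining gene was Msr1 (0.32). DESeq2 and the fit with the replicate number as a block each called 1 higher and 15 lower, and 0 were higher in 21 of 28 alternatives. Mrc1 (−2.24), Mpeg1 (−2.22) and Adgre1 (−1.78), which encodes F4/80, were among the lower ones, and on library totals all 16 were lower. Their summed level was 858 to 2730 CPM (not TMM-scaled) with anti-HuR and 6950 to 10800 CPM with IgG. Of 26 markers of other cell types, 3 were at 0 in all 15 libraries and 5 were tested, and their summed level was 1.01 to 3.66 CPM with anti-HuR and 2.79 to 4.85 CPM with IgG. Pecam1 (1.51) and Cdh5 (1.28), endothelial markers, were called higher, with anti-HuR means of 0.723 and 1.59 CPM. Cd4, a T-cell marker with means of 0.0277 CPM with anti-HuR and 0.104 CPM with IgG, stood at −1.88 and was not called (adjusted p = 0.0665), though 1 marker was called lower without replicate 4 of anti-HuR in DMSO and 1 on library totals. Pecam1 was not called without the IgG LPS library (adjusted p = 0.0622) or with the replicate number as a block (adjusted p = 0.188), and neither gene was called on library totals. All these values are levels in RNA recovered with an antibody from 1 cell line. They measure neither the number of cells of a type nor the RNA per cell.

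Noncoding RNAs differed by class. Of 18 long noncoding RNAs tested, 7 were higher and 5 lower (median 0.23), where 29.8% and 28.1% of all genes tested were, led by Tug1 (3.79), Firre (2.58) and Dleu2 (2.24) on the one side and by Gas5 (−1.64) and Snhg8 (−1.28) on the other. Without the IgG DMSO library Dleu2 was at 2.83 and 3 long noncoding RNAs were lower. Of 9 structured noncoding RNAs, 6 were lower and 1 higher, with Rnu12 (−2.25), Vaultrc5 (−2.15) and the 7SK RNA Rn7sk (−1.98) lowest. The higher one, the Y RNA Rny3 (1.06), was not called without any one of the IgG libraries. Of 10 mitochondrially encoded genes tested, 4 were lower, with mt-Tp (−2.96), mt-Rnr2 (−2.36) and mt-Rnr1 (−1.59) lowest, and 1 higher, mt-Nd1 (0.75), which did not pass in 6 of the fits without 1 library. Histone genes numbered 25 lower and 4 higher of 58 (12 lower without the IgG DMSO library), and small nucleolar RNAs 54 higher and 26 lower of 148 (34 higher without the IgG LPS library, 17 lower without the IgG DMSO library). The scaling turned some of these splits: on library totals, 4 long noncoding RNAs were higher and 10 lower, 24 small nucleolar RNAs were higher and 51 lower, 3 histone genes were higher and 45 lower, 0 mitochondrially encoded genes were higher and 9 lower, and the signs of Rny3 and mt-Nd1 reversed. Some small nucleolar RNAs passed the filter on low counts through 1 antibody only, which fixed their direction. Snord23, called lower, had 6 counts in IgG LPS + TM7nox and at most 3 in any anti-HuR library. Rnu3b2, called higher, had 0 counts with IgG and at most 22 with anti-HuR. How many of the small nucleolar RNA calls are of this kind was not counted.

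Some of the genes furthest below IgG were abundant there. Wwp2, an E3 ubiquitin ligase of the NEDD4 family, lay at 26800, 27000 and 28400 CPM with IgG and at 1030 to 3100 CPM with anti-HuR (−4.23 ± 0.228, adjusted p = 1.9e-12). Before TMM scaling its median was 50900 CPM with IgG, 1140 CPM with anti-HuR and 76 CPM in total RNA, so it took a larger share of both kinds of immunoprecipitate than of the cells' RNA. Itch, another ligase of the same family, lay at 7750, 12900 and 11800 CPM with IgG and at 231 to 1350 CPM with anti-HuR (−4.43 ± 0.273, adjusted p = 9.56e-12), with unscaled medians of 18900, 384 and 61 CPM. Wwp1, a further member, lay at 2030, 1070 and 715 CPM against 30.2 to 135 CPM (−4 ± 0.235). The level of these messages with IgG exceeded every anti-HuR library in all 3 treatments. For Wwp2 and Itch, replicate 3, the number that IgG carries, was the highest of the 4 anti-HuR libraries in every treatment.

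A list of the NEDD4 family was drawn up after these values were seen, and is a description only. Of its 9 members, Wwp2, Itch, Wwp1 and Nedd4l were called lower in edgeR, and DESeq2 called 4 members lower. No member was called higher in either, with 0 higher at an unadjusted p under 0.05 in edgeR, and 1 was called higher in replicate 3 alone. Over all genes tested 28.1% were lower and 29.8% higher. Nedd4l (−4.22) lay at 11.9, 24.1 and 348 CPM with IgG and at 0.608 to 31.5 CPM with anti-HuR, below its own IgG library in each treatment. Nedd4 (−2.96) and Hecw2 (−1.79) were called lower too, but they had at most 4 and 5 counts in any anti-HuR library and passed the filter on low counts through an IgG library, with 11 and 18 counts in IgG DMSO, so their direction was fixed by the filter. Neither was tested when the filter used the antibodies as groups, an alternative chosen after seeing the data. Nedd4 was not tested without the IgG DMSO library either, and both lost the call without the IgG LPS library (adjusted p = 0.0807 and 0.122), Hecw2 also without either of the other IgG libraries. On library totals the signs of Smurf1 and Smurf2 reversed. Smurf1 and Smurf2 lay at 13.3 and 20 CPM with anti-HuR and at 11.4 and 17.8 CPM with IgG (0.21 and 0.2), and Hecw1 stood at −0.84, all 3 not called.

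The others among the 8 lowest belong to no single family. Ift88, a protein of intraflagellar transport, lay at 73.9, 178 and 97.4 CPM with IgG against 3.03 to 7.13 CPM with anti-HuR (−4.58 ± 0.196, adjusted p = 2.14e-13), and its unscaled median was 178 CPM with IgG beside 6.7 CPM in total RNA. Smarcal1, a DNA annealing helicase, lay at 376, 341 and 349 CPM against 4.33 to 59.3 CPM (−4.5). Its anti-HuR level, like those of Wwp2 and Itch, differed by replicate number, with 19.1, 27 and 59.3 CPM in replicate 3 and 4.33 to 7.36 CPM in replicates 1 and 2. Nedd4l had 1018 counts in anti-HuR replicate 3 of LPS + TM7nox and 96 to 195 in the other replicates of that group. With the replicate number as a block the values were −3.41 for Smarcal1, −3.71 for Itch and −3.6 for Nedd4l, all still called. C1ra, a complement protease, stood at −4.27, Madd, a regulator of Rab GTPases, at −3.96, and Blm, the Bloom syndrome helicase, at −3.12. Their IgG means ran from 70.8 CPM (Blm) to 402 CPM (Madd). Fcgr1, the high-affinity receptor for IgG, was the lowest of the macrophage markers listed, with 234, 1520 and 585 CPM with IgG and, in the same treatments, 9.82 to 20, 172 to 242 and 38.4 to 57.1 CPM with anti-HuR (−3.5 ± 0.186, adjusted p = 1.61e-12). Among 7 genes that encode IgG-binding receptors or their partners, a list likewise added after seeing the values, 4 were lower and 1 higher, beside the same 28.1% and 29.8%. Fcgr1, Fcgr3 (−1.04) and Fcer1g (−0.78) are on the macrophage list too, and the last 2 were not called without the treatment term (adjusted p = 0.0557 and 0.172) or against a log2 fold change of 1. The higher one, the receptor Fcgr4 (3.87 ± 0.645), lay at 4.32 to 698 CPM with anti-HuR against 1.18, 28.6 and 10.6 CPM with IgG.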

How the data were processed

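RNA was recovered by anti-HuR or control IgG immunoprecipitation from lysates made with NP-40, extracted with TRIzol, and 7 ng went into SMART-Seq Stranded libraries, per the labels' protocols. The deposited values are raw read counts per gene, and the submitters' processing notes name FastQC 0.11.9, STAR, HTSeq, DESeq2 and GRCm39. No source used here gives the annotation release or the strand setting of the counting.

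Samples were grouped by their labels. Of 55483 genes, 18282 passed filterByExpr (minimum count 10, 6 groups). Counts of the 15 immunoprecipitation libraries were scaled with TMM and fitted with edgeR 4.0.16 (R 4.3.3) by the quasi-likelihood test, with treatment and antibody as terms and Benjamini-Hochberg adjustment over all genes tested. A fit of the 6 group means gave the contrasts within a treatment and the interactions. SEs are the log2 fold change divided by the square root of F. Alternatives used DESeq2 1.42.0, limma 3.58.1 (voom), glmTreat, other scalings and filters, and fits that left out 1 library. Shares of counts were compared by exact permutation tests. Intervals on single shares were not needed, and a floor of 3 counts covers counting error only. The script was tested on simulated data of 18277 genes: 81 of 100 genes changed 2-fold and 100 of 100 changed 4-fold were recovered for anti-HuR against IgG. For the interaction from DMSO to LPS (18279 genes) the numbers were 2 and 24 of 100. In both simulations IgG had the anti-HuR means of its treatment, apart from the changed genes, and the replicate number had no effect. The data differ in both respects, so these rates may not hold for them.

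Libraries with the same replicate number deviated together across treatments (12 pairs, correlations 0.102 to 0.391, other pairs −0.306 to 0.185), which comes from the data and not from the labels, and IgG carries only number 3. Of the table's gene identifiers, 51731 (93.2%) matched GENCODE M39, from which 3′ UTRs were read. Named genes were a panel of inflammatory and control genes, the 12 highest and 8 lowest called genes (mean of at least 5 CPM, no overlap, no predicted symbol), the 3 leading in each direction within a treatment by the same rule, up to 3 leading genes per list and direction, and genes that 1 IgG library held 16 times above all others (no gene met this last rule). Other genes were named after their values were seen. The members and lists were chosen with earlier results of these data known.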

Additional observations from a re-analysis of the deposited data

Results flagged for a closer look

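In groups of 4 anti-HuR libraries, 1 library stood apart from the other 3 (Dixon's test at the 95% level) in 8 of 123 groups tested, where chance gives about 5%. In DMSO, Cxcl10 was at 5.87 CPM in replicate 1 against 1.66 to 2.33 CPM in the others, and Gapdh was at 145 CPM in replicate 1 against 84.4 to 89.4 CPM. Replicate 4 in DMSO was highest for Nos2 (1.23 CPM against 0.511 to 0.622 CPM) and for Fbxl14 (2030 CPM against 1150 to 1300 CPM). Long noncoding RNAs took 1.15% of the counts of replicate 2 in DMSO and 0.667% to 0.728% of the others. In LPS, Tspan5 was at 798 CPM in replicate 2 against 420 to 470 CPM, and Nutf2-ps1 was lowest in replicate 4, at 6.15 CPM against 15.8 to 17.6 CPM. Mitochondrially encoded transcripts took 1.86% of the counts of replicate 4 in LPS and 0.559% to 0.63% of the others.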

How the results depend on the processing

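Leaving out 1 library gave 9288 to 10570 called genes over all treatments, and other settings gave 8054 (no treatment term) to 12616 (library totals). A test against a log2 fold change of 1 called 5326 (3580 higher, 1746 lower). On library totals the sign reversed for Il6 (−0.84), Zfp36 (−0.45, and −0.85 in LPS), Rny3 (−0.046), mt-Nd1 (−0.34), Smurf1 (−0.89) and Smurf2 (−0.9). Tnf (−0.93) and Il10 (−0.43), called in neither fit, and Msr1 changed sign there too, as did uncalled differences within treatments, those of Il1b and Ptgs2 in DMSO, Il6 in DMSO and LPS + TM7nox, Il10 in LPS and LPS + TM7nox, and Tnf and Zfp36 in LPS + TM7nox. With the replicate number as a block, 9793 genes were called and Il6 in LPS reversed to 0.75. Genes whose antibody difference changed from DMSO to LPS numbered 115 with the replicate block, 81 without a filter on low counts, 13 in DESeq2, 1 in replicates 3 and 4 alone and 0 to 1 without a library. From LPS to LPS + TM7nox they numbered 8 with the block, 10 without a filter, 0 in DESeq2 and 0 without any 1 library. Without mitochondrially encoded genes in the total, the anti-HuR minus IgG difference in share was −1.4 percentage points for small noncoding RNAs and 10.2 for the 20 most abundant genes. Leaving out 1 library gave −1.74 to −0.85 and 6.3 to 7.65 for these, and −0.344 to −0.032 for histone genes and −0.276 to 0.11 for long noncoding RNAs. The first 3 of these shares, which did not pass with all libraries, passed in the exact permutation test in 4, 4 and 2 of 17 alternatives, with adjusted p down to 0.0206, 0.0119 and 0.0371. The cause was not tested in any of these cases. The single IgG library per treatment limits every contrast within a treatment.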
